A study of Homo sapiens with 55 samples.

Results

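The ZNF genes of chromosome 19 were described in human HEK293 cells and in SCL60 cells, a HEK293 derivative that carries the rat gonadotropin-releasing hormone receptor. Members were genes whose symbol in the platform annotation is ZNF followed by digits alone, that lie on chromosome 19, and that had a probe detected (detection p-value under 0.01) on at least 3 of the 55 arrays. The gene annotation of assembly GRCh38.p14 lists 241 such genes on the chromosome, 210 had a probe, and 141 passed; 57 were detected on 0 arrays, 10 on 1 and 2 on exactly 2. At the edge of the rule, ZNF749 was detected on exactly 3 arrays with log2 signals between 4.52 and 5.48, while ZNF570 (4.59 to 5.81) and ZNF8 (4.56 to 5.88) were detected on 2 arrays and left out. These 141 genes stood among 12793 features tested, which included 147 ZNF genes of other autosomes and 561 other genes of chromosome 19.

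C2H2 zinc finger proteins bind DNA through tandem fingers, each held together by a zinc ion. Many of those encoded on chromosome 19 also carry a KRAB domain, which binds the corepressor TRIM28 and through it the histone methyltransferase SETDB1, and many bind retrotransposons. The genes lie in clusters that grew by tandem duplication, so that neighbours are often close in sequence.

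RNA was measured on Illumina HumanHT-12 v3 arrays, which report 1 signal per probe, in 14 groups of 4 arrays each except the SCL60 controls at 1 h, which have 3. HEK293 is a human embryonic kidney line; SCL60 was made from it by stable transfection with the receptor at a high level and was kept in G418, so the transgene, the selection and the history of the line cannot be told apart here. Both lines grew in DMEM with 10% serum on plates coated with Matrigel. Controls received vehicle, a 20% solution of propylene glycol, and were taken at 0, 1 and 24 h in HEK293 and at 0, 1, 8 and 24 h in SCL60. Treated cells received 100 nM triptorelin, an agonist of the receptor, for 1 and 24 h in HEK293 and for 0.5, 1, 2, 8 and 24 h in SCL60. Nothing in the labels says that replicates came from separate cultures, so p-values measure the spread between these samples, which may be technical, and in these bulk samples fewer cells expressing a gene and less RNA per cell cannot be told apart.

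Arrays were of like quality: array medians lay between 44 and 75 on the signal scale, 11766 to 14763 probes were detected per array, and replicate arrays correlated at 0.953 to 0.993. Of 10 genes written down as markers of HEK293-type cells, 9 had a probe and 7 (NEFM, NEFL, KRT8, KRT18, VIM, CDH2 and OCIAD2) were detected on every array. LHX1 was detected on 14 arrays and PAX2 on none. Of 5 markers each of fibroblasts, blood cells, endothelium and pituitary gonadotropes, none was detected on every array, and 3, 4, 4 and 4 respectively were detected on none. The rest were the fibroblast markers PDGFRA (30 arrays) and COL1A1 (25), the blood marker CD14 (39), the endothelial marker PECAM1 (4) and the gonadotrope marker CGA (16). The probe for human GNRHR was among those detected on no array, and it does not measure the rat transgene.

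The promoters of the members that differed most between the lines and have an entry in the RefSeq table are shown with that of ZNF431, the member with the largest rise in SCL60, because these are the promoters of genes that moved apart between a line and its parent. Each runs from 250 bases before to 50 after the annotated start, 5′ to 3′, with CG dinucleotides in capitals (assembly GRCh38.p14). They lie at chr19:52690447-52690746 on the minus strand (ZNF83), chr19:52962832-52963131 on the minus strand (ZNF816), chr19:58058989-58059288 on the plus strand (ZNF135), chr19:23395422-23395721 on the minus strand (ZNF91) and chr19:21141790-21142089 on the plus strand (ZNF431).
ZNF83: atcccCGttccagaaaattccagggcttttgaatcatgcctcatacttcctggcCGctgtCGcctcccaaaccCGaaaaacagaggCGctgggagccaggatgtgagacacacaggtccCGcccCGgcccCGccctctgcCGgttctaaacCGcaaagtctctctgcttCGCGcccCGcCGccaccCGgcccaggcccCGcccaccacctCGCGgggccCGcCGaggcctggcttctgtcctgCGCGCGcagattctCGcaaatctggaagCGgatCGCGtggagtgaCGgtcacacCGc
ZNF816: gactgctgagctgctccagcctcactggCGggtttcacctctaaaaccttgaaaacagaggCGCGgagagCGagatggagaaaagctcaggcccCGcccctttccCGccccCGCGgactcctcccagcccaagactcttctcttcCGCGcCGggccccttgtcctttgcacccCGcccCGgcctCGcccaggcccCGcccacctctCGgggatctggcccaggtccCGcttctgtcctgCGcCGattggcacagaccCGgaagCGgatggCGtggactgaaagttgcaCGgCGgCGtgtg
ZNF135: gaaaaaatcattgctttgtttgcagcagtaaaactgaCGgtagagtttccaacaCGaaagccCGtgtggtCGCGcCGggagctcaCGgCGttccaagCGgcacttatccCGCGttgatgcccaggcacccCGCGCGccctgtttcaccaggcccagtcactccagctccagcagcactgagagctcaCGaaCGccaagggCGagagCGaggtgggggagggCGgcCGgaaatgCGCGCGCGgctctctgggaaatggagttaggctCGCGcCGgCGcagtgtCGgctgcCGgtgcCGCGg
ZNF91: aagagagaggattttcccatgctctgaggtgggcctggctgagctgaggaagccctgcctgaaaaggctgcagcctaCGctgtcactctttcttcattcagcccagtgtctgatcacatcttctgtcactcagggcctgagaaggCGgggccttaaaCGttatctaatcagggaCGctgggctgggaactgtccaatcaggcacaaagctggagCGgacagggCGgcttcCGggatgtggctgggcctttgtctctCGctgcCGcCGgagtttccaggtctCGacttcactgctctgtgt
ZNF431: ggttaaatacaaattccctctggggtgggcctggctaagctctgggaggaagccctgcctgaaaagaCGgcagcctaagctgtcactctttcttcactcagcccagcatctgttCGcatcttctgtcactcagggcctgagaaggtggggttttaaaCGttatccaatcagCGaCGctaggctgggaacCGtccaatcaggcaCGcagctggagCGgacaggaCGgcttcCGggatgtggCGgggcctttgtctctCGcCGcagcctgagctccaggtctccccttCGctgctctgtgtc
The letters CG, which read the same on both strands, occurred 29, 25 and 32 times in the promoters of ZNF83, ZNF816 and ZNF135, and 11 and 14 times in those of ZNF91 and ZNF431. At least as many were held by 24.2%, 32%, 18.9%, 54.7% and 50.3% of the 35116 promoters in the table, and 96% held at least 1. In a global alignment the ZNF91 and ZNF431 promoters shared 256 of 305 aligned positions (83.9%), although the level of ZNF91 was lower in SCL60 and that of ZNF431 higher. The other pairs shared between 43.7% and 53.7%.

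The first comparison asked how the 2 lines differed without agonist, from the mean of the 0, 1 and 24 h controls (11 SCL60 and 12 HEK293 arrays). In SCL60, 98 of the 141 ZNF genes were lower and 3 were higher (limma, adjusted p under 0.05), while 40 did not pass. Over all 12793 features 19.9% were lower and 22.5% higher. The median log2 difference, SCL60 minus HEK293, was -0.53 over the members and 0.00 over all features, and 25 members were at least 2-fold lower by the fitted difference. Differences ran from -3.86 to 0.37, and 129 of 141 were below 0. Because a gene detected in 1 line alone passes the detection rule by being different, the count was also taken where that could not happen: of the 80 members detected on every control array of both lines, 53 were lower and 1 higher, with a median of -0.49, against 21.4% lower and 21.2% higher of the 8833 features detected on all those arrays. With no detection filter, 111 of the 210 ZNF genes with a probe were lower and 3 higher (median -0.33), against 5.88% and 6.85% of the 39557 features then tested.

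**Figure D1:**
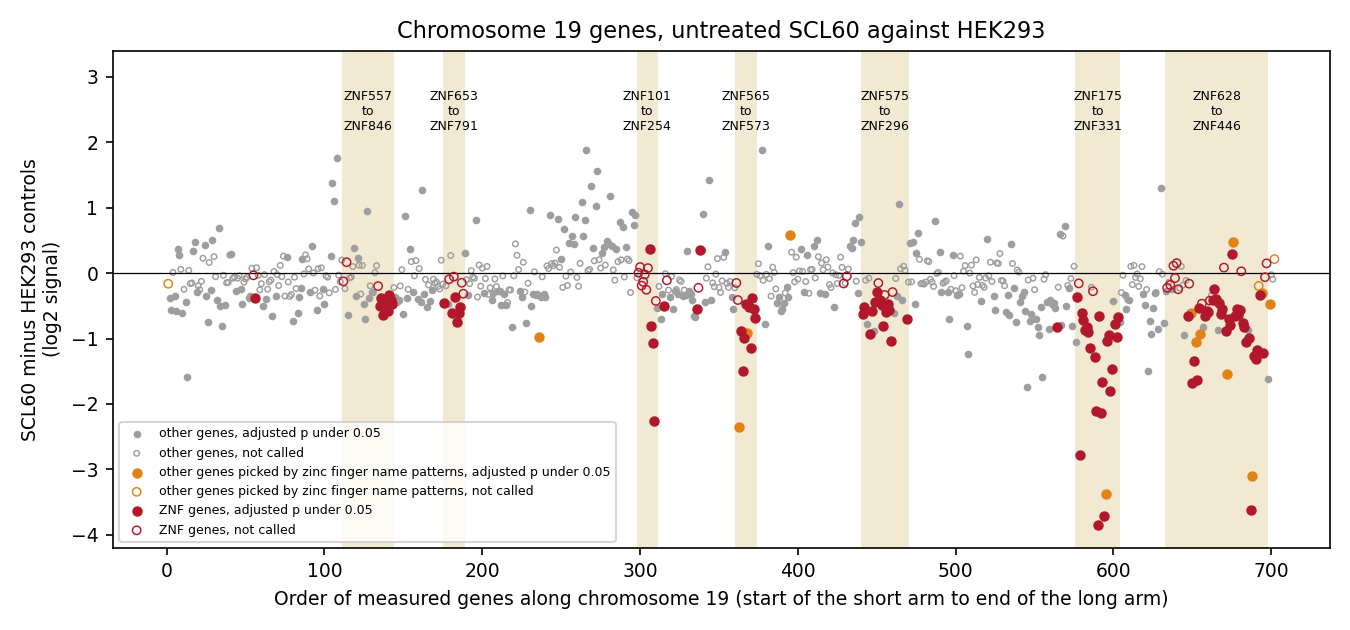
Log2 difference in signal, SCL60 minus HEK293 controls, of every measured gene of chromosome 19 (vertical axis) in their order along the chromosome (horizontal axis). Red points are the 141 ZNF genes, orange points are 16 other genes picked by zinc finger name patterns and grey points are the remaining 545; filled points passed an adjusted p of 0.05 and shading marks clusters with at least 10 members. Red points lie mostly below 0, the lowest near -3.86 in the cluster from ZNF175 to ZNF331.

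ZNF83 had the largest fitted log2 difference. Its log2 signal was between 7.98 and 8.96 on the 12 HEK293 control arrays (median 8.39) and between 4.43 and 4.75 on the 11 SCL60 control arrays (median 4.56). The probe was detected on every HEK293 control array and on no SCL60 control array, so the fold is a bound: ZNF83 was at least 7.03-fold lower in SCL60 (log2 difference -3.86, SE 0.09, adjusted p = 1.41e-37 by limma). Bounds of this kind set each dim value to the lowest signal of any detected probe on its array.

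ZNF135 showed the same pattern. It ran from 7.65 to 8.61 in HEK293 (median 8.03) and from 4.40 to 4.59 in SCL60 (median 4.44), where no array detected it, which makes it at least 5.53-fold lower. ZNF816 ran from 8.49 to 9.43 in HEK293 (median 9.08) and from 4.95 to 5.60 in SCL60 (median 5.22), with 1 of 11 SCL60 arrays detecting it. The group means differed 13.1-fold (log2 difference -3.71, SE 0.11, limma adjusted p = 4.85e-33), with an SCL60 mean taken mostly from arrays that did not detect the probe. For all 3 genes the lowest HEK293 array lay far above the highest SCL60 array.

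ZNF649 fell 6.90-fold, from 7.72 to 8.81 in HEK293 (median 8.33) to 4.81 to 5.79 in SCL60 (median 5.59), and was still detected on 7 of 11 SCL60 arrays. ZNF91, which encodes a repressor of SVA retrotransposons, ran from 6.20 to 8.44 in HEK293 (median 7.59) and from 4.93 to 6.03 in SCL60 (median 5.20), where 1 of 11 arrays detected it. The group means differed 4.79-fold (log2 difference -2.26, SE 0.20, limma adjusted p = 1.06e-13). Its groups did not overlap, although HEK293 arrays spread widely. ZNF28, ZNF701 and ZNF320 were detected on all 12 HEK293 and 0 SCL60 control arrays and were at least 2.20-, 2.06- and 1.74-fold lower. ZNF875 was the other member with that pattern (at least 1.58-fold lower), and no member showed the reverse.

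ZNF431, ZNF792 and ZNF211 were the 3 members that were higher in SCL60. ZNF431 ran from 5.22 to 6.30 in HEK293 (median 6.16, 11 of 12 arrays detecting it) and from 6.05 to 6.62 in SCL60 (median 6.39), a 1.29-fold difference (log2 0.37, SE 0.12, limma adjusted p = 0.00808). These groups overlap, and within either hybridisation batch alone the difference did not pass (adjusted p 0.132 and 0.0798). ZNF792 differed by 0.36 and ZNF211 by 0.30 on the log2 scale; they were named after their values were seen, as the remainder of a count of 3.

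**Figure D2:**
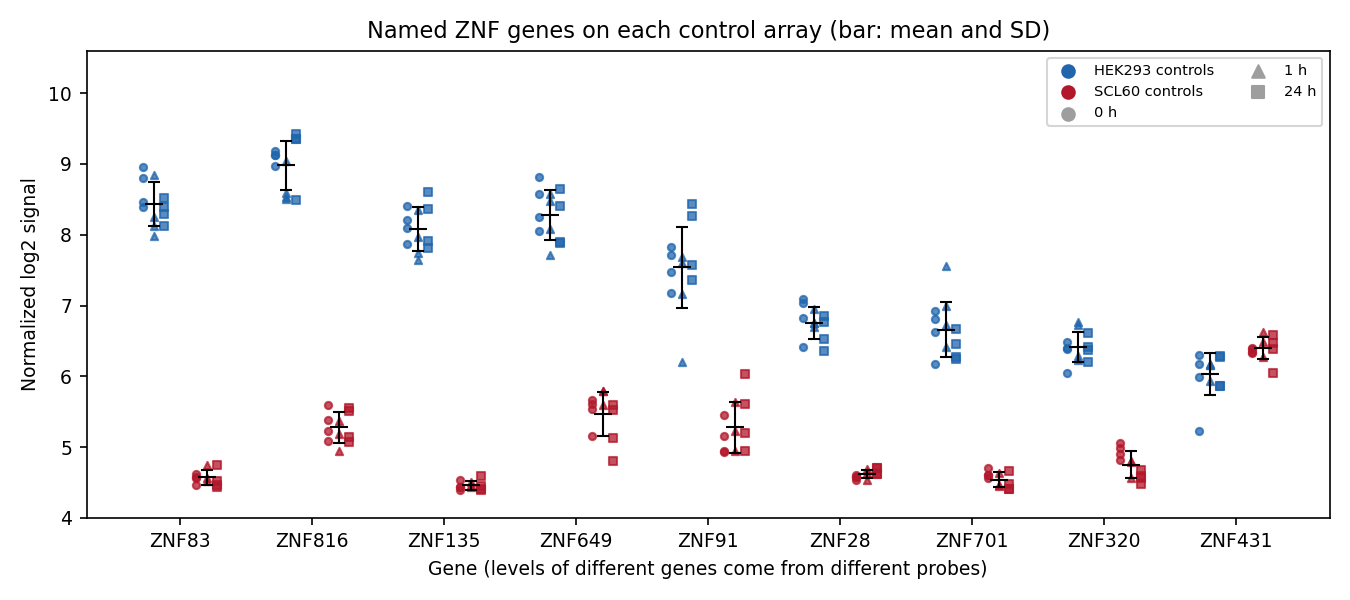
Normalized log2 signal (vertical axis) of the 8 ZNF genes with the largest falls and of ZNF431 on each control array, blue for HEK293 and red for SCL60, with symbols for the time and black bars for the mean and SD (n = 12 and 11). The lines separate completely for the 8 lower genes, as for ZNF83 with a HEK293 minimum of 7.98 and an SCL60 maximum of 4.75, and overlap for ZNF431.

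Every SCL60 control array lay below every HEK293 control array for 34 of the 141 members, against 2.85% of all features, and above for 0 members, against 4.73%. For ZNF genes of other autosomes these counts were 7 and 4 of 147. The 141 members include 6 detected on all HEK293 and no SCL60 control arrays and 0 of the reverse, which favours the count below. These counts, and those that follow by batch, time, triptorelin array and cluster, were not repeated over members detected in both lines. The median member, measured against its own HEK293 control mean, lay between -0.70 and -0.23 on the 35 SCL60 arrays and between -0.22 and 0.16 on the 20 HEK293 arrays, so no array of one line reached those of the other. The same median over the 545 chromosome 19 genes outside the ZNF and other zinc finger lists lay between -0.30 and 0.02 in SCL60 and between -0.16 and 0.20 in HEK293, which overlap. Members were lower in SCL60 in both hybridisation batches taken alone (88 lower, 0 higher, median -0.57 in batch 1, and 71 lower, 2 higher, median -0.48 in batch 2). Over all features these shares were 13.6% lower and 16.7% higher in batch 1 and 11.6% and 14.6% in batch 2. With the controls of 1 time point alone, 75 were lower and 2 higher at 0 h, against 8.11% and 11.4% of all features. At 1 h it was 53 and 0, against 6.64% and 9.38%, and at 24 h 70 and 0, against 8.36% and 10.5%.

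**Figure D3:**
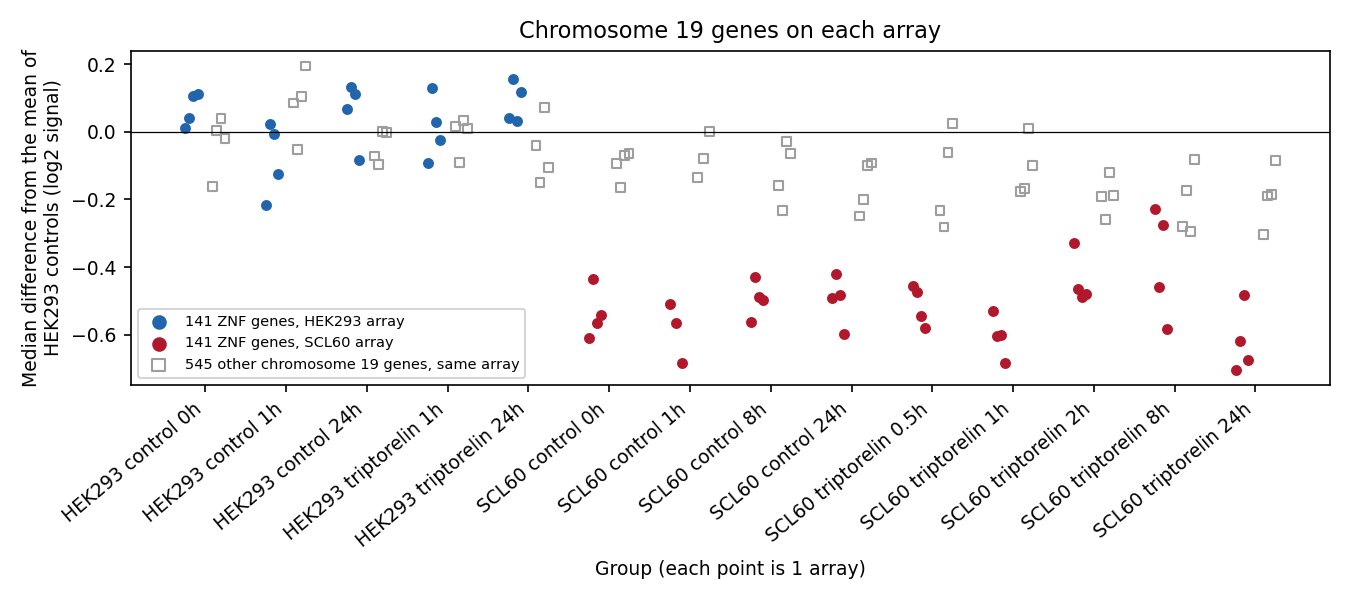
Median over genes of the log2 difference from the HEK293 control mean (vertical axis) on each array, by group. Filled points are the 141 ZNF genes, blue on HEK293 and red on SCL60 arrays, and open squares are 545 other chromosome 19 genes on the same arrays. The red points, from -0.70 to -0.23, lie below all the blue ones.

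The triptorelin arrays at 1 and 24 h gave the same comparison in cells that share no array with the controls (8 SCL60 against 8 HEK293 arrays); this was added after the control values had been seen. On them 103 members were lower and 1, ZNF431, was higher (limma, adjusted p under 0.05), against 16.9% and 17.9% of all features. Of the 98 members lower in controls, 98 had the same sign and 91 passed again. ZNF83 differed by -3.96, ZNF816 by -3.89 and ZNF135 by -3.68. Over the 141 members the 2 sets of differences correlated at r = 0.958, a description over genes that share probes between the sets. Same-numbered control and triptorelin arrays at 1 and 24 h also deviated together (correlations 0.0591 to 0.69), and 1 model fitted both sets. The 2 sets are therefore not independent.

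**Figure D4:**
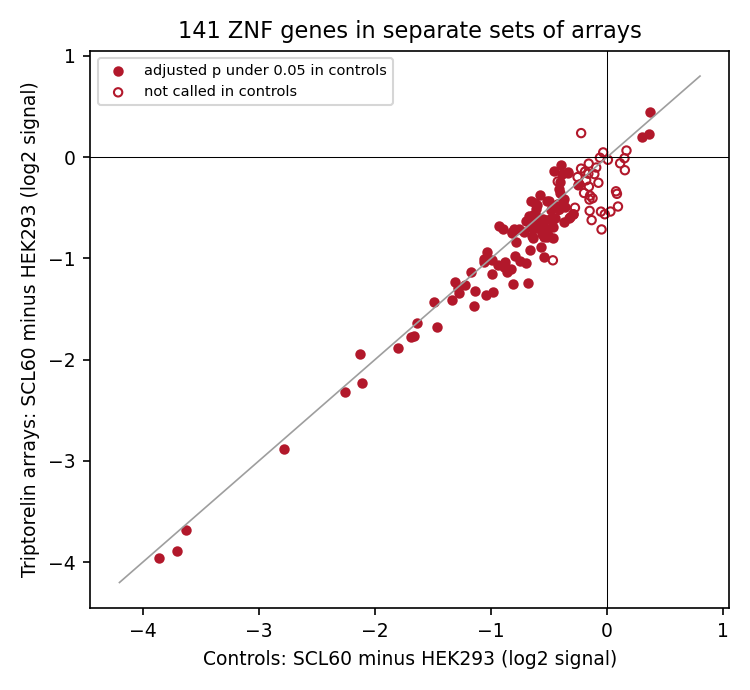
Log2 difference, SCL60 minus HEK293, of each of the 141 ZNF genes in the control arrays (horizontal axis) and in the triptorelin arrays at 1 and 24 h (vertical axis), which share no array. Filled points passed the test in controls, the grey line marks equal values, and the points follow it (r = 0.958 over genes).

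Along the chromosome, annotated ZNF genes parted by more than 1 Mb were put in separate clusters, which gave 16, of which 13 held members and 7 held at least 10. The median member difference was below 0 in all 13. The steepest was the long-arm cluster from ZNF175 to ZNF331, where 22 of 24 members were lower, 0 were higher, 11 were at least 2-fold lower by the fitted difference and the median was -0.96. It held 6 of the 8 named falls (ZNF83, ZNF816, ZNF649, ZNF28, ZNF701 and ZNF320). The last cluster of the long arm, from ZNF628 to ZNF446, had 31 of 45 members lower and 1 higher (median -0.57), with ZNF135 at -3.62.

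The other clusters with at least 10 members had smaller median differences. The members from ZNF565 to ZNF573 had 9 of 11 lower (median -0.54), those from ZNF575 to ZNF296 had 14 of 17 lower (median -0.52), and the short-arm clusters from ZNF557 to ZNF846 and from ZNF653 to ZNF791 had 9 of 12 and 6 of 10 lower (medians -0.41 and -0.41), with none higher in these 4. The short-arm cluster from ZNF101 to ZNF254 stood out by its spread: 3 of 12 were lower and 1 higher, its median was -0.16, and its range ran from ZNF91 at -2.26 to ZNF431 at 0.37. By arm, 19 of 36 members of the short arm and 79 of 105 of the long arm were lower (medians -0.37 and -0.60). Chromosome 19 genes outside the zinc finger lists went the same way, with 71 of 272 lower on the short arm and 96 of 273 on the long arm (medians -0.07 and -0.16). With clusters split at 0.5 Mb, 15 of 16 clusters with members had a median below 0.

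Genes lying between the ZNF genes differed less. Of 57 tested genes inside the clusters that belong to neither zinc finger list, 20 were lower and 5 higher (35.1% and 8.77%, median -0.19). Of the 488 outside the clusters, 147 were lower and 78 higher (30.1% and 16.0%, median -0.13). Over all features 19.9% were lower and 22.5% higher, so chromosome 19 genes outside the zinc finger lists were also shifted downward in SCL60. The nearest 20 such genes before the cluster from ZNF101 to ZNF254 were shifted upward, with 11 higher, 0 lower and a median of 0.39, and the 20 after it downward (11 lower, 1 higher, median -0.27). For the cluster from ZNF175 to ZNF331 the flanks had medians of -0.32 and -0.27, against -0.96 for its members. Gene copy number was not measured in these files, and its part in these regional levels was not tested.

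Zinc finger genes elsewhere showed a smaller shift. Of 147 ZNF genes of other autosomes, 47 were lower and 21 higher (median -0.11); these varied by chromosome. On chromosome 8 it was 10 of 12 lower and 0 higher, and on chromosome 12 it was 5 of 8 and 0 (medians -0.57 and -0.57). On chromosomes 9, 14, 18 and 20 none was lower, and 3 of 8, 2 of 3, 3 of 8 and 2 of 6 were higher. These chromosomes were singled out after their values were seen. Of 23 ZFP, ZSCAN and ZKSCAN genes of other autosomes 8 were lower and 5 higher (median -0.11), led by ZFP90 at 0.92, ZKSCAN8 at -0.53, ZSCAN31 at 0.53 and ZFPM1 at 0.52. On chromosome 19 itself, 16 further genes were picked by name patterns, of which ZFP36, a CCCH-type RNA-binding protein, and MIER2 are not C2H2 genes. Of these 16, 11 were lower and 2 higher (median -0.76), led by the pseudogene ZNF702P (-3.38), ZSCAN18 (-3.11), ZFP82 (-2.35) and ZIK1 (-1.54).

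Of 29 names written down for KRAB cofactors and heterochromatin proteins, 26 were tested, and in SCL60 controls 5 were higher and 3 lower, which is 19.2% and 11.5% of them, against 22.5% and 19.9% of all features. TRIM28, the scaffold that KRAB domains bind, differed by -0.02 (SE 0.16, limma adjusted p = 0.924), and SETDB1 was higher by 0.44 (SE 0.13, adjusted p = 0.00604). MORC2, a partner of the HUSH silencing complex, differed by -0.46 on the log2 scale, while the HUSH subunits TASOR and MPHOSPH8 were higher by 0.40 and 0.36.

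More than 1 probe passed for 21 members, which gave 25 further probes. For 22 of them the line difference had the sign of the probe used; the exceptions were those of ZNF430, ZNF549 and ZNF627. ZNF274, whose protein recruits SETDB1 to the ends of zinc finger genes, was lower by all 3 probes (-1.31, -1.18 and -1.52); it was named after its values were seen. Some probes of 1 gene differed in size: ZNF682 gave -0.13 with the probe used and -2.69 with the other, and ZNF160 gave -1.04 and -3.26. Cross-hybridisation between neighbouring ZNF genes was not tested, since probe sequences were not used here.

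Promoter CG content varied widely among the members. In the 128 members with a promoter entry it ran from 2 to 42 per 300 bases (median 21), against a median of 14 over all promoters in the table and 25 for the ZNF genes of other autosomes. Of 65 members at or above the median count, 43 were lower in SCL60 (median difference -0.56), and of 63 below it, 47 were lower (median -0.49). The rank correlation between CG count and line difference was -0.097 over these 128 genes.

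Triptorelin was examined next, to ask whether receptor activation moved these genes. At 0.5 h in SCL60 none of the 141 members passed (limma, against the 1 h controls), against 0.109% of all features in either direction, and 9 had an unadjusted p under 0.05. At 2 h, also against the 1 h controls, none passed, against 1.49%, with 16 at an unadjusted p under 0.05; with the replicate number as a block, 2 passed, against 3.30% of all features in that fit. The median member difference at 2 h was 0.15, where that of the ZNF genes of other autosomes was 0.08 and that of all features -0.03. The comparisons at 0.5, 1 and 2 h share their 3 control arrays, and time and handling cannot be told apart from triptorelin at 0.5 and 2 h.

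At 1 h ZNF548 alone passed, 1 of 141 against 0.563% of all features. Its log2 signals were 9.50, 9.21, 9.18 and 9.21 with triptorelin and 8.50, 8.62 and 8.50 in controls. The groups did not overlap, and the fold was 1.66 (log2 difference 0.73, SE 0.18, limma adjusted p = 0.0314). The call was lost on leaving out any 1 of the 7 arrays (adjusted p 0.0501 to 0.215), and ZNF548 was at 8.89 ± 0.15 (SD, n = 4) at 2 h and 8.36 ± 0.17 (SD, n = 4) at 8 h.

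At 8 h, when the most genes of the whole array differed, 11 members rose and 7 fell, that is 7.8% and 4.96% of the members against 11.2% and 13.5% of all features. The median log2 difference was 0.08 for the members, 0.09 for the 147 ZNF genes of other autosomes and -0.03 for all features. Of those 147 genes 12.9% rose and 15.0% fell. With the replicate number as a block, 22 rose and 10 fell, against 16.0% and 19.2% of all features in that fit. ZNF671 had the largest change, with 5.48, 5.80, 5.43 and 4.89 after triptorelin and 6.43, 6.73, 6.97 and 6.63 in controls. Every treated array lay below every control, and the group means differed 2.44-fold, although 1 of 4 treated arrays detected the probe (log2 difference -1.29, SE 0.20, limma adjusted p = 1.27e-06). The call held on leaving out each of the 8 arrays in turn and within hybridisation batch 1. In batch 2, which holds 1 triptorelin array at 8 h, the log2 difference was -1.046.

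Of the other falls at 8 h, 4 met the rule for named genes. ZNF524 fell 1.75-fold (adjusted p = 0.0174), ZNF784 1.71-fold (0.0114), ZNF446 1.71-fold (0.0279) and ZNF428 1.53-fold (0.0063), all by limma. The arrays of ZNF524 overlapped, with 7.88, 7.70, 7.62 and 8.50 after triptorelin and 8.92, 7.95, 8.97 and 9.07 in controls. Leaving out treated replicate 3 ended the calls of ZNF784 (adjusted p = 0.0814) and ZNF428 (0.119); ZNF524 was lost in 5 and ZNF446 in 4 of 8 such fits. Within hybridisation batch 1 alone none of these 4 passed, and batch 2 holds 1 triptorelin array at 8 h. ZNF792, named as the remainder of the count, changed by -0.64.

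ZNF460 rose most at 8 h, with 6.91, 6.66, 7.57 and 7.30 after triptorelin and 5.53, 5.95, 6.53 and 6.38 in controls. These arrays did not overlap, and the fold was 2.02 (log2 difference 1.01, SE 0.28, limma adjusted p = 0.00604); 3 of 4 control arrays detected the probe, and the second probe gave 0.70. ZNF584 rose 1.74-fold, with 8.28, 8.05, 7.99 and 8.61 against 7.57, 7.01, 7.64 and 7.52 (log2 difference 0.80, SE 0.16, adjusted p = 0.000161). Both calls held in each of the 8 fits that left out 1 array. Within hybridisation batch 1 ZNF584 passed (limma adjusted p 0.00915) and ZNF460 did not (0.132). In batch 2, with 1 triptorelin array at 8 h, the log2 differences were 0.955 for ZNF460 and 0.736 for ZNF584. ZNF227, ZNF559, ZNF77 and ZNF761 rose 1.63-, 1.56-, 1.40- and 1.38-fold. Their calls were lost in 5, 1, 4 and 4 of the 8 fits; for ZNF559 it was treated replicate 1 that decided (adjusted p = 0.0732 without it).

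The count of rises at 8 h rested on single arrays. It was 4 and 3 without treated replicates 3 and 1, and 6 without control replicate 3 or 4; the count of falls was 4 without treated replicate 3. All 11 members that rose had a negative line difference in controls of other times, between -0.29 and -0.82, as had 129 of the 141. Among the KRAB cofactors 3 rose and 2 fell at 8 h, which is 11.5% and 7.69% of them, against 11.2% and 13.5% of all features. The largest of these changes were MORC3 (0.70), EHMT2 (-0.64), DNMT3B (-0.55) and TRIM24 (0.54), while TRIM28 was at -0.11 and SETDB1 at -0.33 without passing. Of the 16 further chromosome 19 genes 5 rose (31.2%) and 0 fell, with ZFP36 (2.41), ZSCAN5A (0.93), MIER2 (0.80) and KLF2 (0.51) among the rises. Of the 23 genes elsewhere 3 rose and 3 fell (13.0% each, near the shares of all features), among them ZFP36L1 (1.07), ZSCAN2 (-0.999), ZFP90 (-0.95) and ZFP36L2 (0.71).

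**Figure D5:**
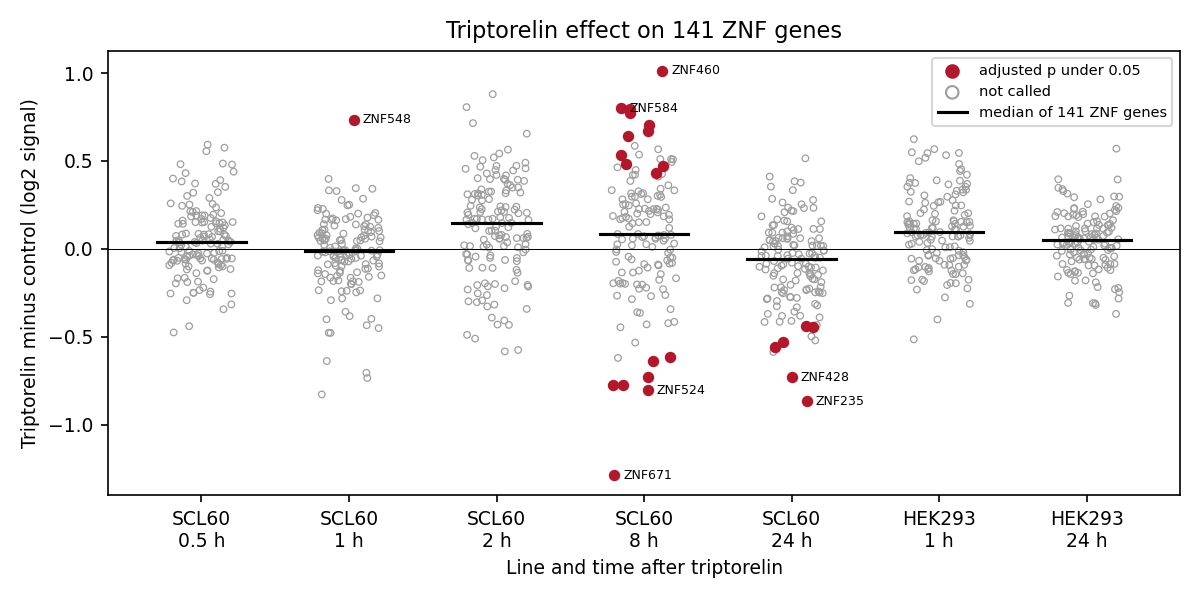
Log2 difference, triptorelin minus control, of each of the 141 ZNF genes (vertical axis) by line and time. Filled points passed an adjusted p of 0.05, black bars are the medians, and the 2 largest named changes in each direction carry labels. ZNF671 at -1.29 and ZNF460 at 1.01, both at 8 h, are the widest called changes, and no point is filled in HEK293.

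At 24 h 6 members fell and none rose, against 5.70% and 4.75% of all features; 4 members were higher at an unadjusted p under 0.05, and with the replicate number as a block 2 rose and 9 fell, against 8.27% and 9.73%. ZNF235 was at 4.76, 5.11, 5.32 and 4.96 after triptorelin, where no array detected it, and at 5.66, 6.10, 6.04 and 5.83 in controls, where all 4 did. It was at least 1.22-fold lower (log2 difference -0.87, SE 0.17, limma adjusted p = 0.000406), and it was also among the 7 falls at 8 h (at least 1.22-fold, adjusted p = 0.00142, with 0 of 4 treated arrays detecting it). ZNF428 fell 1.66-fold, with 10.33, 10.00, 10.17 and 10.27 against 10.95, 10.65, 11.05 and 11.04 (log2 difference -0.73, SE 0.17, adjusted p = 0.00263). Neither gene's arrays overlapped, and both calls held on leaving out each array. Within batch 1 ZNF235 passed (limma adjusted p 0.00796) and ZNF428 did not (0.0537). Batch 2 holds 1 array of each of these groups, and there the log2 differences were -0.90 for ZNF235 and -0.62 for ZNF428.

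The 4 remaining falls at 24 h were smaller. ZNF606, ZNF285 and ZNF615 fell 1.47-, 1.36- and 1.35-fold, and ZNF565 was at least 1.25-fold lower. On leaving out 1 array these calls were lost in 6, 6, 3 and 5 of 8 fits in the same order, and 3 members fell without treated replicate 1 or 2 or control replicate 1, 2 or 3. The second probe of ZNF565 gave 0.06 on the log2 scale against -0.53 with the probe used. No KRAB cofactor passed at 24 h by limma, with 3 at an unadjusted p under 0.05; TRIM28 was at -0.13 and SETDB1 at -0.05. Among the further zinc finger genes ZFP36 (1.42) and KLF2 (0.67) of chromosome 19 rose, and ZFP90 (-0.62) and ZSCAN2 (-0.57) fell.

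In HEK293, which lacks the transgene, no member passed at 1 h or at 24 h by limma, against 0% of all features at each time, and 9 and 4 members had an unadjusted p under 0.05. The effect at 24 h was then compared between the lines, SCL60 minus HEK293: 2 members differed, against 3.86% of all features in either direction. For ZNF235 the effect was -0.87 in SCL60 and 0.14 in HEK293 (difference -1.01, SE 0.25, limma adjusted p = 0.00934). The call held on leaving out each of 16 arrays but not within batch 1 (adjusted p 0.178). In batch 2, with 1 SCL60 array per group, the difference was -1.07. For ZNF615 the effects were -0.44 and 0.19 (difference -0.63, SE 0.18, adjusted p = 0.0326), and the call was lost in 8 of the 16 fits. Between 24 and 8 h in SCL60, 1 member differed, against 3.07% of all features, and 13 with the replicate number as a block (7.77% of all features). That gene, ZNF565, had an effect of -0.53 at 24 h and 0.45 at 8 h (difference -0.98, SE 0.26, limma adjusted p = 0.0199), whose call was lost without treated replicate 4 or control replicate 1 at 24 h or treated replicate 1 at 8 h (adjusted p 0.0692, 0.0525 and 0.0525). The probe was detected on 0 of 4 treated arrays at 24 h and on 1 of 4 control arrays at 8 h. The second ZNF565 probe, detected on 4 of the 55 arrays, went the other way, with -0.40 at 8 h and 0.06 at 24 h (difference 0.45, SE 0.26, adjusted p = 0.436).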

How the data were processed

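The authors deposited a table of non-normalized probe intensity with a detection p-value per probe and array, per the file headers, and a second table of values they normalized, used as an alternative; the steps before that are not given in the sources used here. Intensities of 48803 probes were background corrected with nec of limma 3.58.1 (R 4.3.3, offset 16), which read the negative controls off the detection values. They were then log2 transformed and quantile normalized between arrays. A probe had to be detected on 3 arrays or more, and each gene was represented by its brightest probe. Names came from the platform annotation, chromosomes and gene order from the RefSeq table of assembly GRCh38.p14, to which all 210 ZNF symbols of the chromosome matched; the files name no build. The 55 arrays entered 1 limma model holding a mean for each group (empirical Bayes with an intensity trend), and p-values were adjusted by Benjamini-Hochberg over all 12793 features. The fit was tested on simulated data.

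Members and lists were chosen with earlier results of these data known. Named genes were the 8 largest rises and falls between the lines, 6 at 8 and 24 h and 3 elsewhere, among members with an adjusted p under 0.05, seen above background by all arrays in 1 of the groups compared (of a line's controls in the first comparison), with each array of the first group on 1 side of the other's mean (not asked of differences of effects), plus members detected on all controls of 1 line and none of the other, and up to 4 passing members of each list. Same-numbered arrays deviated together in every pair of the SCL60 triptorelin comparisons (correlations 0.163 to 0.69). Replicate number largely runs with labelling batch, so paired samples and batch cannot be told apart. The main fit held no replicate term, and fits with the replicate number as a block are given as alternatives. Alternatives were the normalization, the filter, the probe rule, blocks, batches, single times, leaving out each array, and the symbol rule. The number of arrays limits the precision.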

Additional observations from a re-analysis of the deposited data

Results flagged for a closer look

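For 6 of the groups of 4 arrays of named members, 1 array stood apart by Dixon's criterion (80 gene and group pairs were tested, and chance gives about 1 in 20). ZNF816 was at 9.04 in HEK293 control replicate 2 at 1 h, where the others lay between 8.51 and 8.59, and at 8.49 in HEK293 control replicate 4 at 24 h, where the others lay between 9.35 and 9.43; both lie above all SCL60 control arrays. ZNF431 was at 5.93 in HEK293 control replicate 1 at 1 h (others 6.16 to 6.18). ZNF548 was at 9.50 in SCL60 triptorelin replicate 1 at 1 h (others 9.18 to 9.21). ZNF524 was at 7.95 in SCL60 control replicate 2 at 8 h (others 8.92 to 9.07). ZNF285 was at 6.45 in SCL60 control replicate 4 at 24 h (others 6.81 to 6.87).

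The triptorelin effect at 24 h differed between SCL60 and HEK293 for ZNF235 (-1.01) and ZNF615 (-0.63), and between 24 and 8 h in SCL60 for ZNF565 (-0.98), each by limma's test of the difference itself.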

How the results depend on the processing

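Between the lines, the count of lower members ran from 53 to 111 over the alternatives and from 96 to 101 on leaving out each array. Only the 1 h controls alone (53) moved it by over 1.5 times. The 111 is of the 210 genes tested with no filter on dim probes, against 98 of 141 in the main fit. Counts with no filter below are also of 210 genes. In hybridisation batch 1 and with the 1 h or the 24 h controls alone 0 members were higher, and 1 in the triptorelin arrays, chosen after seeing the data. With the replicate block 104 were lower and 3 higher. Triptorelin counts were small and moved more. At 1 h the 1 call became 0 with no filter on dim probes, within either batch, with only the groups compared and on leaving out any array. At 2 h the replicate block gave 2, the 0 h controls 1, and leaving out 1 array 0 to 1. At 8 h rises were 4 with no filter, 22 with the replicate block, 2 within each batch, 3 with only the groups compared, and 3 to 15 on leaving out 1 array; falls were 3 and 1 within batches 1 and 2, and 4 to 7 on leaving out 1 array. At 24 h falls were 2 with no filter or only the groups compared, 1 and 0 within batches, and 3 to 5 on leaving out 1 array; rises were 2 with the replicate block, 1 with the labelling batch block and 0 to 1 on leaving out 1 array. The difference between lines at 24 h had 1 call with no filter or only the groups compared, 4 with the replicate block, 0 within each batch, and 1 to 3 on leaving out 1 array. The difference between 24 and 8 h had 0 calls with the mean of a gene's probes, within each batch and with only the groups compared, 13 with the replicate block, 4 with the labelling batch block, and 0 to 4 on leaving out 1 array. Fits within a batch or of the compared groups alone hold fewer arrays. For SCL60, batch 2 holds 1 control array at 1 h and 1 triptorelin array at 8 h. At 24 h it holds 1 triptorelin and 1 control array of that line. Other causes were not tested. Of 850 refits of named members, 710 kept their call, 140 lost it and 0 turned. No call was made in HEK293 or at 0.5 h under the alternatives run. Correlations between same-numbered arrays reached lower values between the lines at 0 and 24 h (lowest 0.0648 and 0.1) and in HEK293 at 1 and 24 h (lowest 0.102 and 0.0591). Members near background, such as ZNF83 in SCL60, have only a bound there.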
